A study of Mus musculus with 9 samples.

Results

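The epicardium is the mesothelial sheet that covers the heart, and its identity genes, together with those of the cardiac fibroblasts that descend from it, were followed through birth in mouse hearts. The group held 10 of the 48820 genes in the table, chosen by name: the transcription factor genes *Wt1*, *Tbx18*, *Tcf21* and *Bnc1*, the retinoic acid enzyme gene *Aldh1a2*, the surface and filament genes *Upk1b*, *Upk3b*, *Msln* and *Krt19*, and the growth factor receptor gene *Pdgfra*. RNA from whole hearts of untreated wild-type C57BL/6J mice was sequenced at embryonic day 18.5 (E18.5d), postnatal day 1 (P1d) and postnatal day 7 (P7d), with 3 hearts per stage and 9 in all. The labels give all 3 groups the same strain, genotype and lack of treatment. Levels are FPKM, the fragments counted per kilobase of a gene and per 1e6 fragments of the library.

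Epicardial cells express *Wt1* and *Tbx18* in the embryo, make retinoic acid, which acts on the myocardium beneath, and carry the keratin and uroplakin genes shared by other mesothelia such as pleura and peritoneum. Some of them leave the sheet by an epithelial to mesenchymal transition and become fibroblasts, which need *Tcf21*, and mural cells of the coronary vessels. Fibroblasts of the heart are recognised by *Pdgfra*, *Tcf21* and collagen genes. In RNA of whole hearts, fewer cells of a type and less RNA per cell cannot be told apart.

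Low FPKM values rose in steps that depend on the length of the gene, and these gave a depth of 25 to 45.5 times 1e6 fragments per heart, with 1 fragment on a kilobase worth 0.0220 to 0.040 FPKM. The *Wt1* level in any heart rested on at least 156.5 fragments per kilobase and the *Pdgfra* level on at least 721.5, whereas *Bnc1*, the lowest of the 10, rested on 20.6 to 41.7. The labels give every heart as male, yet *Xist*, the RNA that silences an X chromosome in females, stood at 58.03 to 97.03 FPKM in E18.5d replicates 1 and 3 and P7d replicates 2 and 3, in which 4 Y-linked genes were listed at 0. No P1d heart was of this kind, so that sex and stage overlap in part. Airway genes were high in E18.5d replicates 1 and 2 and P1d replicate 1, with *Scgb3a2*, a secretoglobin of the airways, at 53.24, 127.1 and 179.2 FPKM there and no higher than 1.00 FPKM in any of the other 6. Where leaving out these libraries ended the calls of a group of genes, that is given with its count. Leaving out either set leaves 1 heart at E18.5d, so comparisons with E18.5d in those fits rest on a single heart of that stage. Nothing in the labels says whether hearts of a stage shared a litter, so p-values measure the spread between these hearts only.

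Between E18.5d and P7d the surface genes fell and the retinoic acid enzyme gene rose. By limma, a moderated linear model, 9 of the 10 genes could be tested, since *Bnc1* had a mean below 1 FPKM. Of these, *Upk3b*, *Upk1b*, *Msln*, *Krt19* and *Tbx18* were lower at P7d, *Aldh1a2* was higher, and *Wt1*, *Tcf21* and *Pdgfra* did not pass an adjusted p of 0.05. The 6 calls among 9 genes stand against 49.4% of all 13618 genes tested (12.5% higher and 36.9% lower), so that being called was common among genes in this comparison. Changes of this size were less so: 0.962% of all genes tested fell at least as far as *Krt19* and 1.73% at least as far as *Upk3b*. The shares were 2.69% for *Upk1b*, 4.59% for *Msln* and 5.51% for *Tbx18*, and 1.46% rose at least as far as *Aldh1a2*. The median change of the group was -0.83 on the log2 scale, against -0.17 for all genes tested. Without the 4 hearts with *Xist*, which leaves 1 heart at E18.5d and 1 at P7d, the 6 changes kept their direction but none passed by limma (adjusted p of 0.0651 to 0.148, and 6 genes with an unadjusted p under 0.05). With *Xist* as a covariate in all 9 hearts, 1 gene was higher and 5 were lower. Hearts with *Xist* were equally many at E18.5d and P7d, so this covariate could not change the log2 differences between them. The part of sex in these differences was not tested.

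**Figure D1:**
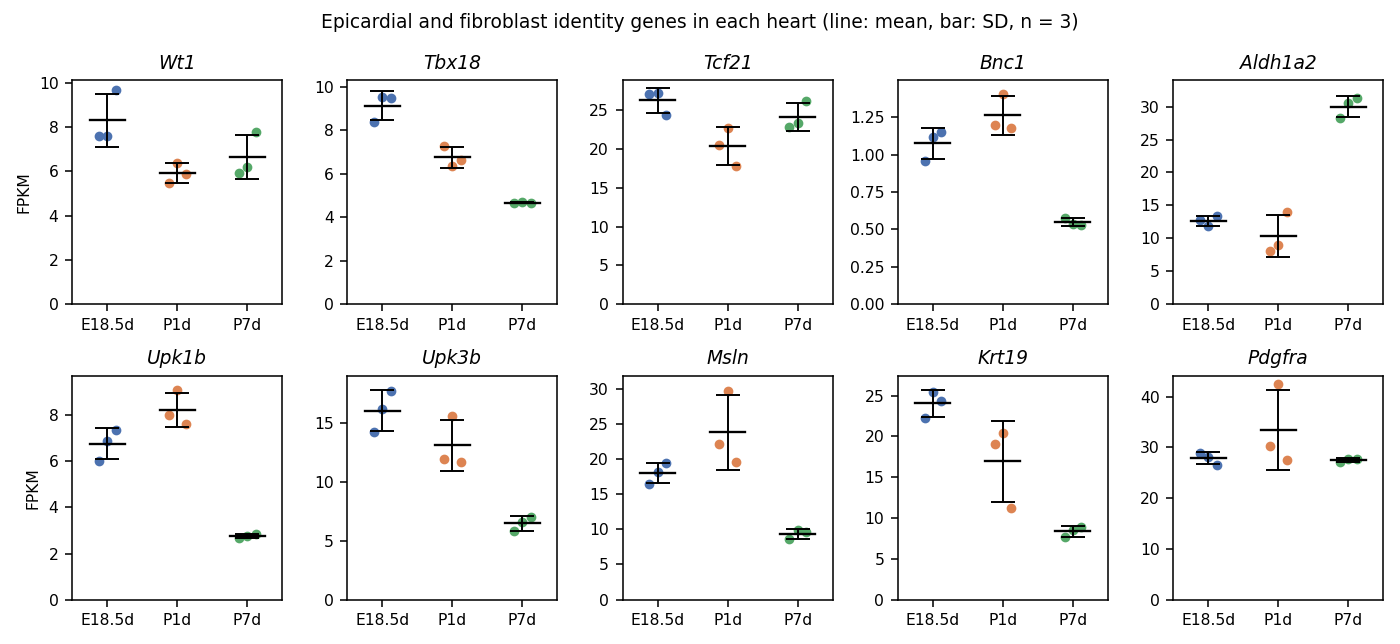
FPKM of the 10 genes (vertical axes, from 0) in each of the 3 hearts per stage (points), with the mean (horizontal line) and SD (bar). *Aldh1a2* is the only gene of the 10 whose P7d hearts all lie above the other stages, at 28.24 to 31.24 FPKM, and the P7d hearts lie below both other stages for *Tbx18*, *Bnc1*, *Upk1b*, *Upk3b*, *Msln* and *Krt19*.

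The sequence before the annotated start is shown for 3 of these genes because they represent the patterns seen: *Upk3b* for the surface genes that fell, *Tbx18* for a transcription factor gene that fell at both steps, and *Aldh1a2* for the gene that rose. The 250 bases before the start are from RefSeq (GRCm38.p6), printed 5′ to 3′ on the gene's strand, for *Upk3b* chr5:136038246-136038495 on the plus strand, for *Tbx18* chr9:87731261-87731510 on the minus strand and for *Aldh1a2* chr9:71215539-71215788 on the plus strand. Capitals mark matches on either strand to 5 short motifs: CANCTG (E-box), GCGTGGG (a WT1-type site), AGGTGT (a T-box core), GGAATG (a TEAD-type site) and CCAAT.
Upk3b: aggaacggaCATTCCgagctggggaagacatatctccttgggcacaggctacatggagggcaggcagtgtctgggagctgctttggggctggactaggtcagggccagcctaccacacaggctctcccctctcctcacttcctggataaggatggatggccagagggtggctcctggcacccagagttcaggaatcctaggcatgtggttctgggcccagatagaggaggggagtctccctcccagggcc
Tbx18: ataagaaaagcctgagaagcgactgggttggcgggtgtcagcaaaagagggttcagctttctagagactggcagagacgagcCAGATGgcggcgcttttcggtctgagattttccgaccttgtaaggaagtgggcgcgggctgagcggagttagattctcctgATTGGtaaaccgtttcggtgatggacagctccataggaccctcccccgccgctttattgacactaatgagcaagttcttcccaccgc
Aldh1a2: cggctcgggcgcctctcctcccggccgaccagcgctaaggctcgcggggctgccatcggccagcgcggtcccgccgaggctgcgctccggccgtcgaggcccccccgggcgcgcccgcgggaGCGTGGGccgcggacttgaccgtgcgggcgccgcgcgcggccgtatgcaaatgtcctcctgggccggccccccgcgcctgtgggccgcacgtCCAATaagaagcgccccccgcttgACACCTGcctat

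The *Upk3b* window held 1 match, a TEAD-type site read on the other strand that begins 241 bases before the start. The *Tbx18* window held an E-box that begins 168 bases and a CCAAT box 87 bases before the start. In the *Aldh1a2* window a WT1-type site begins 128 bases before the start and a CCAAT box 36 bases before it, and a T-box core and an E-box overlap in the run ACACCTG that begins 12 bases before it. Of all 32851 windows of this length, 44.8% held an E-box, 4.3% a WT1-type site, 11.8% a T-box core, 12.6% a TEAD-type site and 33.8% a CCAAT box. The 3 windows differed in base composition, with 77.6% G and C for *Aldh1a2*, 60.8% for *Upk3b* and 54% for *Tbx18*, against a median of 52.4% over all windows. RefSeq entries were at hand for 6 of the 10 genes, and a match is a description of the letters only.

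Among the transcription factor genes, *Tbx18* (chr9:87702800-87731260), which encodes a T-box factor of the embryonic epicardium, fell at each step. It was at 8.38, 9.55 and 9.49 FPKM in the 3 E18.5d hearts, at 7.28, 6.36 and 6.64 FPKM in the P1d hearts and at 4.67, 4.71 and 4.66 FPKM in the P7d hearts. The hearts of the 3 stages did not overlap, and the P7d hearts nearly coincided. From 9.14 ± 0.659 FPKM at E18.5d (SD, n = 3) the mean fell 1.95-fold to 4.68 ± 0.0265 FPKM at P7d, a log2 change of -0.83 (standard error 0.08, limma adjusted p = 3.17e-05). The exons of *Tbx18* share 970 bases with a gene on the opposite strand, *D030062O11Rik*, which was at 0.11 to 0.52 FPKM, and whether counting used the strand is not given in the sources used here.

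*Wt1* (chr2:105126529-105173616), which encodes a zinc finger factor needed for the epicardium to form, was at 7.61, 7.61 and 9.69 FPKM at E18.5d, at 5.49, 6.37 and 5.90 FPKM at P1d and at 5.94, 6.18 and 7.77 FPKM at P7d. The highest P7d heart, replicate 3, lay above the lowest E18.5d hearts, and the P1d hearts lay below every E18.5d heart. The means were 8.30 ± 1.2, 5.92 ± 0.440 and 6.63 ± 0.995 FPKM (SD, n = 3 per stage). Between P7d and E18.5d the log2 difference was -0.29 with a 95% interval of -0.55 to -0.02, and it did not pass after adjustment over all genes (limma adjusted p = 0.0683). It was between -0.14 and -0.13 on 3 other scales of the columns (limma adjusted p of 0.385 to 0.423), -0.18 without E18.5d replicate 3 (adjusted p = 0.228), and -0.39 without P7d replicate 3, where it passed (adjusted p = 0.025).

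*Tcf21* (chr10:22817281-22820174), which encodes a bHLH factor required for cardiac fibroblasts to form, was among the most abundant of the 10. Its level was 27.15, 27.29 and 24.47 FPKM at E18.5d, 20.48, 22.78 and 17.89 FPKM at P1d and 22.83, 23.37 and 26.24 FPKM at P7d. P7d hearts overlapped E18.5d hearts and lay just above every P1d heart, the nearest pair being 22.83 and 22.78 FPKM. The log2 difference between P7d and E18.5d was -0.12 (95% interval -0.33 to 0.09, limma adjusted p = 0.312), on means of 26.3 ± 1.59 and 24.2 ± 1.83 FPKM, and it turned to values of 0.03 to 0.06 with 3 other scales of the columns.

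*Bnc1* (chr7:81966672-81992292), which encodes basonuclin 1, a zinc finger protein of mesothelia and stratified epithelia, was the lowest of the 10 at every stage. It was at 0.96, 1.12 and 1.15 FPKM at E18.5d, at 1.2, 1.41 and 1.18 FPKM at P1d and at 0.58, 0.54 and 0.53 FPKM at P7d. All P7d hearts lay below all others, so that the mean of 1.08 ± 0.102 FPKM at E18.5d was 1.96-fold that of 0.550 ± 0.0265 FPKM at P7d (SD, n = 3). The mean over the 9 hearts, 0.963 FPKM, kept it out of the main test. In an alternative fit that took in all 20033 genes averaging 0.1 FPKM or more, in which 36.9% of genes passed, its log2 change was -0.42 (standard error 0.08, limma adjusted p = 0.00424), a scale that understates changes of genes this low.

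The surface and filament genes carried the decrease. *Upk3b* (chr5:136038496-136046487), which encodes a uroplakin of mesothelial membranes, was at 14.20, 16.19 and 17.72 FPKM at E18.5d, at 11.97, 15.60 and 11.67 FPKM at P1d and at 5.78, 6.59 and 7.04 FPKM at P7d. E18.5d and P1d hearts overlapped, and every P7d heart lay below them. The mean fell 2.48-fold, from 16.0 ± 1.77 to 6.47 ± 0.639 FPKM (SD, n = 3; log2 change -1.19, standard error 0.12, limma adjusted p = 6.25e-05).

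*Upk1b* (chr16:38773184-38800328), which encodes a tetraspanin uroplakin, was at 6.03, 6.90 and 7.35 FPKM at E18.5d, at 8, 9.08 and 7.62 FPKM at P1d and at 2.66, 2.78 and 2.84 FPKM at P7d. The P1d hearts were the highest and the P7d hearts the lowest, with no overlap between any pair of stages. Means were 6.76 ± 0.671, 8.23 ± 0.758 and 2.76 ± 0.0917 FPKM, and the P7d level was 2.45-fold below that at E18.5d (log2 change -1.04, standard error 0.09, limma adjusted p = 2.28e-05). Apart from *Upk1b* and *Upk3b*, uroplakin genes were barely seen: *Upk2* and *Upk3a* were listed at 0 in all 9 hearts, and *Upk1a*, *Upk2*, *Upk3a* and *Upk3bl* summed to at most 0.37 FPKM in any heart.

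*Msln* (chr17:25748613-25754378) encodes mesothelin, a glycoprotein anchored on the mesothelial surface. It was at 16.51, 18.14 and 19.47 FPKM at E18.5d, at 22.15, 29.77 and 19.53 FPKM at P1d and at 8.56, 9.85 and 9.66 FPKM at P7d. The order of the stages was that of *Upk1b*, with P1d replicate 3 only just above the highest E18.5d heart. The mean at P7d, 9.36 ± 0.696 FPKM, was 1.93-fold below the 18.0 ± 1.48 FPKM of E18.5d (log2 change -0.88, standard error 0.14, limma adjusted p = 0.000656).

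*Krt19* (chr11:100140810-100148665), which encodes a type I keratin of simple epithelia, showed the largest decrease of the 10. It was at 22.30, 25.47 and 24.34 FPKM at E18.5d, at 19.13, 20.45 and 11.28 FPKM at P1d and at 7.65, 8.49 and 8.90 FPKM at P7d. No stages overlapped, although P1d replicate 3 stood well below the other P1d hearts. The mean fell 2.88-fold from 24.04 ± 1.61 to 8.35 ± 0.637 FPKM (SD, n = 3; log2 change -1.42, standard error 0.18, limma adjusted p = 0.000215).

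Keratin 19 is also a gene of airway lining, and the lung marker list varied widely between hearts within E18.5d and within P1d. The 8 lung genes summed to 2.01 to 251.64 FPKM at E18.5d, 1.1 to 492.87 FPKM at P1d and 0 to 0.27 FPKM at P7d, and none of the 3 that could be tested passed in any comparison. *Scgb3a1* and *Scgb3a2* were listed at 0 in all P7d hearts. Epithelial *Epcam* stayed at or below 0.43 FPKM and *Cdh1* at or below 0.74 FPKM in every heart. In the hearts of the first 2 stages with little airway RNA, *Krt19* had levels of 24.34 (E18.5d replicate 3), 20.45 (P1d replicate 2) and 11.28 FPKM (P1d replicate 3), and in those with airway RNA its levels were 22.30, 25.47 and 19.13 FPKM. The part of airway tissue in these levels was not tested. Leaving out the 3 hearts with airway genes leaves 1 heart at E18.5d. The log2 difference of *Krt19* between P7d and E18.5d was then -1.44, and the 6 genes called in all hearts kept their direction.

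*Aldh1a2* (chr9:71215789-71296243) encodes the dehydrogenase that makes retinoic acid in the epicardium, and it rose while *Tbx18* and the surface genes fell. It was at 12.85, 11.83 and 13.32 FPKM at E18.5d, at 8.10, 9 and 13.93 FPKM at P1d and at 28.24, 30.52 and 31.24 FPKM at P7d. Every P7d heart stood far above the highest earlier heart, P1d replicate 3, and the E18.5d and P1d hearts overlapped. The mean rose 2.37-fold from 12.7 ± 0.762 to 30.0 ± 1.57 FPKM (SD, n = 3; log2 change 1.18, standard error 0.16, limma adjusted p = 0.000279), which took it from the sixth of the 10 genes in level at E18.5d to the highest at P7d.

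Of 17 other genes of retinoic acid metabolism and signalling, 11 were tested. At P7d 4 of them stood above E18.5d and 3 below, against 12.5% and 36.9% of all genes tested. Their median log2 change was 0.03 against -0.17 for all genes. *Rxrg*, a retinoid X receptor gene, rose most, from 0.43, 0.47 and 0.34 FPKM at E18.5d to 9.12, 9.73 and 7.66 FPKM at P7d (log2 change 2.79, limma adjusted p = 2.56e-07). Dehydrogenase gene *Dhrs3*, whose product turns retinaldehyde back to retinol, rose by 1.2 and *Aldh1a3*, another retinoic acid synthase gene, by 0.74 on the log2 scale. The receptor gene *Rara* was lower at P7d, with a log2 change of -0.42. The synthase gene *Aldh1a1* was at 2.60 to 3.15 FPKM at P7d and 2.34 to 4.15 FPKM at E18.5d and did not pass. Of the enzymes that break retinoic acid down, *Cyp26a1* and *Cyp26b1* stayed below 1 FPKM in every heart and *Cyp26c1* was at most 0.02 FPKM. On 3 of 4 other scales of the columns, 5 were higher and 2 lower, without the 3 hearts with airway genes 3 were higher and none lower, and without the 4 with *Xist* 1 was higher and none lower.

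*Pdgfra* (chr5:75152292-75198215), the receptor gene that marks fibroblasts, changed least of the 10 between the outer stages. It was at 28.86, 28.09 and 26.59 FPKM at E18.5d, at 30.26, 42.43 and 27.50 FPKM at P1d and at 27.15, 27.65 and 27.78 FPKM at P7d. All stages overlapped, with P1d replicate 2 standing far above the rest. The E18.5d mean was 27.9 ± 1.15 FPKM and the P7d mean 27.5 ± 0.333 FPKM (SD, n = 3), and the log2 difference of -0.02 had a 95% interval of -0.31 to 0.28 (limma adjusted p = 0.933). Of 5 related ligand and receptor genes, 2 were higher and 1 lower, against 12.5% and 36.9% of all genes tested. *Pdgfrb*, the receptor gene of mural cells, rose by 0.75 and *Pdgfb*, a ligand gene of endothelium, by 0.53 on the log2 scale. The ligand gene *Pdgfc* fell by 0.76. *Pdgfa* and *Pdgfd* did not pass, with log2 differences of -0.34 and 0.11. Without the hearts with *Xist* none of the 5 passed by limma, with 3 at an unadjusted p under 0.05.

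Other fibroblast genes were mostly higher at P7d. Against E18.5d, 12 of 17 tested were higher and 1 was lower, against 12.5% and 36.9% of all genes tested. Their median log2 change was 0.68, against -0.17 for all genes. *Pi16*, a peptidase inhibitor gene of adventitial fibroblasts, rose from 2.92 ± 0.662 to 13 ± 0.426 FPKM (SD, n = 3; log2 change 1.85). *Mfap5*, a microfibril gene, rose by 1.06, *Medag* by 1.05, the surface antigen gene *Thy1* by 0.85 and the protease gene *Fap* by 0.79 on the log2 scale. *Vim*, a filament gene of many non-muscle cells, was the 1 lower gene (log2 change -0.47) and is named because it stood alone. On 3 other scales of the columns 14 fibroblast genes were higher, without the airway hearts 10 were higher and none lower, and without the 4 hearts with *Xist* none passed, with 9 at an unadjusted p under 0.05 by limma.

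A list of 13 further epicardial and mesothelial genes, of which 12 were tested, went the way of the uroplakins. At P7d 10 were lower than at E18.5d and 1 was higher, against 36.9% and 12.5% of all genes tested. Their median log2 change was -0.77, against -0.17 for all genes. *Muc16*, a membrane mucin gene, fell from 3.57 ± 0.949 to 1.13 ± 0.176 FPKM (SD, n = 3; log2 change -1.08). *Dmkn* changed by -1.0, the keratin gene *Krt7* by -1.0, *Lrrn4* by -0.97 and the glycoprotein gene *Gpm6a* by -0.81. The exception was *Krt18*, another keratin gene, with E18.5d hearts at 6.32, 8.54 and 5.06 FPKM and P7d hearts at 8.01, 9.97 and 10.1 FPKM (log2 change 0.46, limma adjusted p = 0.0334), named after its values were seen, with hearts that overlapped. Its call was lost with no filter and with only the stages compared. It was also lost without E18.5d replicate 1, E18.5d replicate 3, P7d replicate 2 or P7d replicate 3. *Sema3d* did not pass and *Rspo1* was below the level tested. The count of lower genes was 9 or 10 on 4 other scales of the columns, and 7 without the 3 hearts with airway genes. Without the 4 hearts with *Xist* none passed by limma, with 7 at an unadjusted p under 0.05. In 7 genes of the epithelial to mesenchymal transition, 1 was higher and 1 lower, against 12.5% and 36.9% of all genes tested. These were *Prrx1*, a homeobox gene of fibroblasts (0.51), and *Zeb1*, a repressor gene of epithelial genes (-0.18). The *Zeb1* call was lost on 4 other scales, with the *Xist* covariate and without the airway hearts. It was also lost without E18.5d replicate 1, E18.5d replicate 3 or P7d replicate 2. Without the hearts with *Xist* neither passed by limma, with 0 of the 7 at an unadjusted p under 0.05.

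**Figure D2:**
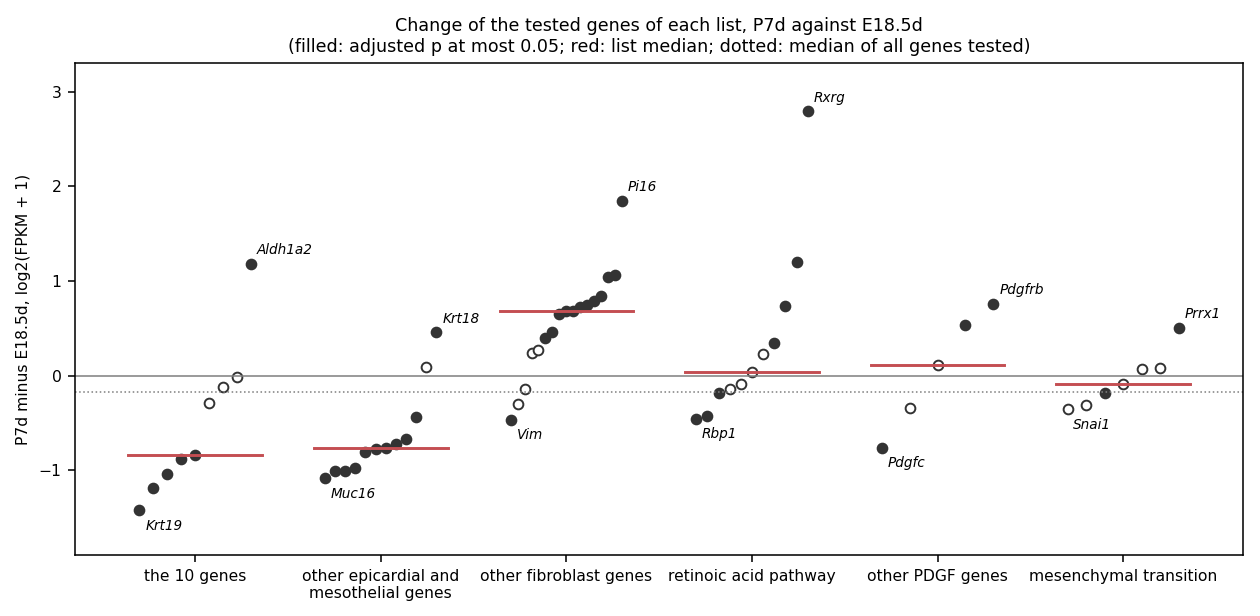
Log2 change from E18.5d to P7d, on log2(FPKM + 1), of each tested gene of the group and of 5 related lists (filled points pass, open points do not; red lines are list medians). The epicardial and mesothelial list lies mostly below 0, with a median of -0.77, and the fibroblast list mostly above, with a median of 0.68.

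Marker genes of other cells moved between E18.5d and P7d as well, where 12.5% of all genes tested were higher and 36.9% lower. The 8 cardiomyocyte genes summed to 14509.5 to 14660.4 FPKM at E18.5d and 18450.8 to 19118.2 FPKM at P7d, with 5 higher and 2 lower. *Myh6*, an adult-type myosin gene, rose from 3220 to 8318 FPKM, whereas the troponin gene *Tnnt2* fell from 4431 to 3056 FPKM and the natriuretic peptide gene *Nppa* from 2103 to 1047 FPKM. The 5 endothelial genes, of which 4 were higher, summed to 297.9 to 334.86 and 417.02 to 431.83 FPKM. The sum of the 6 mural genes overlapped, at 752.8 to 908.41 and 765.81 to 858.65 FPKM, but 3 of them were higher and 1 lower: the pericyte genes *Rgs5* (34.8 to 102.8 FPKM), *Kcnj8* (10.3 to 18.9 FPKM) and *Abcc9* (68.0 to 112.8 FPKM) rose and the smooth muscle actin gene *Acta2* fell (700.6 to 551.3 FPKM). Macrophage genes summed to 41.39 to 54.79 and 61.75 to 69.26 FPKM. Erythroid genes ranged from 5805.63 to 15463.3 FPKM at E18.5d and 5715.7 to 7403.07 FPKM at P7d. Brown fat genes summed to 6.13 to 7.77 FPKM at E18.5d, 25.93 to 26.33 FPKM at P1d and 33.62 to 38.94 FPKM at P7d, liver genes to at most 28.62 FPKM in any heart, and thymus genes to at most 0.15 FPKM. The part of these cells in the results above was not tested.

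The comparison of P1d with E18.5d asks what had changed by the first day after birth. *Wt1*, *Tbx18*, *Tcf21* and *Krt19* were lower at P1d and *Upk1b* was higher, 5 of 9 genes tested against 46.0% of all genes (18.4% higher and 27.6% lower). *Tbx18* was lower by 0.39 on the log2 scale, from 9.14 to 6.76 ± 0.472 FPKM (limma adjusted p = 0.00276), and *Tcf21* changed by -0.36, to 20.4 ± 2.45 FPKM (adjusted p = 0.0116). *Wt1* changed by -0.42 (adjusted p = 0.0159) and *Krt19* by -0.52 (adjusted p = 0.0396). *Upk1b* was higher by 0.25 (adjusted p = 0.0447). *Msln* was also above E18.5d in every P1d heart, with a log2 difference of 0.36 that did not pass (adjusted p = 0.0516), and neither did *Upk3b* (-0.28), *Aldh1a2* (-0.30) and *Pdgfra* (0.23), whose hearts overlapped. In all, the hearts of both stages did not overlap for 7 of the 10 genes, against 54.4% of genes tested. *Bnc1* is among the 7 but not among the genes tested, so these shares are over unlike sets.

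The calls at P1d depended on the hearts and the fit. With a covariate for *Xist*, and also without the 3 hearts with airway genes, *Tbx18* alone was called. Without the 4 hearts with *Xist*, which leaves 1 heart at E18.5d, no gene passed by limma and 1 had an unadjusted p under 0.05. Of 23 alternatives, *Upk1b* was no longer called in 16, *Krt19* in 13, *Wt1* in 6, *Tcf21* in 3 and *Tbx18* in 1. P1d replicate 2 was the highest of its stage for 8 of the 10 genes, all but *Tbx18* and *Aldh1a2*, and its column had the largest sum, 1794160 FPKM, of which 62.3% was small structural RNA. The part of that composition in the values was not tested. P1d replicate 3 was the lowest for 7 of the 10 genes but the highest for *Aldh1a2*, and without it 8 of 9 genes were called. The spread was wide at P1d, with an SD of 30.3% of the mean for *Aldh1a2*, 29.2% for *Krt19*, 23.8% for *Pdgfra* and 22.3% for *Msln*, where the widest at P7d was 15% for *Wt1*.

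Of the related lists at P1d, 1 of 17 fibroblast genes was higher (*Mfap5*, named because it stood alone) and 6 were lower than at E18.5d, against 18.4% and 27.6% of all genes. The lower genes included *Meox1*, a homeobox gene (log2 change -0.54), *Postn*, the matrix gene periostin (-0.32), *Cd248* (-0.32), *Fap* (-0.31) and *Dpt* (-0.29). The count of 6 became 2 with median of ratios, with quantile normalization, with no filter and with only the stages compared, and 1 with *Xist* as a covariate. It was 2 without P1d replicate 1, 9 without P1d replicate 2, 9 with columns of equal sum and 3 without P1d replicate 3 or any E18.5d heart. Without the airway hearts none passed by limma, with 2 at an unadjusted p under 0.05. In the epicardial and mesothelial list 2 were higher, *Krt18* (0.84) and the tight junction gene *Cldn15* (0.80), and *Gata5*, a cardiac and mesothelial factor gene, was lower (-0.67). The transition genes *Twist1* (-0.56), *Snai1* (-0.55) and *Snai2* (-0.38) were lower and *Tgfbr3*, a TGF-beta co-receptor gene, higher (0.56). Without the airway hearts 1 transition gene was higher and the 3 lower calls were lost. In the retinoic acid list *Dhrs3* (0.75), *Rxrg* (0.52), *Rxrb* (0.40) and *Rxra* (0.35) were higher and *Rarb* (-0.31) and *Rara* (-0.20) lower, and none of these passed by limma without the airway hearts, with 3 at an unadjusted p under 0.05. *Pdgfrb* was higher by 0.49 and *Pdgfb* changed by -0.25, and without the airway hearts no gene of its list passed by limma, with 1 at an unadjusted p under 0.05. The lower call in that list was also lost on 3 of 4 other scales. Without the 4 hearts with *Xist* no gene of the 5 lists passed at P1d by limma. At an unadjusted p under 0.05 there were then 4 epicardial and mesothelial, 2 transition, 1 retinoic acid, 1 growth factor receptor list and 0 fibroblast genes.

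Between P1d and P7d the surface genes fell and *Aldh1a2* rose. *Upk1b* fell 2.98-fold, from 8.23 to 2.76 FPKM, a log2 change of -1.29 (standard error 0.09, limma adjusted p = 1.48e-05), and *Msln* fell from 23.8 ± 5.32 to 9.36 FPKM (-1.24, adjusted p = 0.000135). *Upk3b* changed by -0.91 (adjusted p = 0.000391), *Krt19* by -0.90 (adjusted p = 0.00333) and *Tbx18* by -0.45 (adjusted p = 0.00139). *Aldh1a2* rose 2.90-fold, from 10.3 ± 3.14 to 30.0 FPKM (1.48, adjusted p = 0.000114). The 6 of 9 genes called, 1 higher and 5 lower, stand against 44.2% of all genes (15.5% higher and 28.6% lower). In the fit that reached down to 0.1 FPKM, in which 31.7% of genes passed, *Bnc1* changed by -0.54 (limma adjusted p = 0.0014). *Tcf21* was higher by 0.24 and did not pass (adjusted p = 0.0642), but did on each of 4 other scales of the columns. Without the 4 hearts with *Xist*, *Upk1b* alone passed. *Wt1* (0.14) and *Pdgfra* (-0.25) did not pass, with 95% intervals of -0.13 to 0.40 and -0.54 to 0.05.

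**Figure D3:**
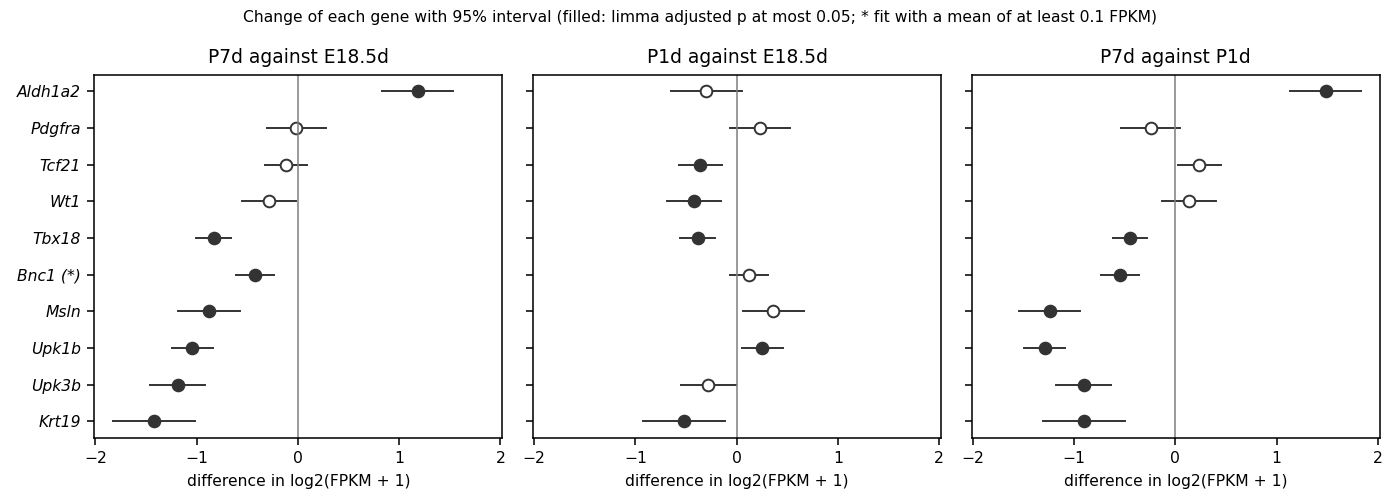
Log2 difference on log2(FPKM + 1) with its 95% interval for the 10 genes in the 3 comparisons (filled points pass an adjusted p of 0.05; *Bnc1* is from the fit with a mean of at least 0.1 FPKM). *Aldh1a2* lies to the right in both comparisons of P7d (1.18 and 1.48), and the uroplakin, mesothelin and keratin genes lie to the left.

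The same step took fibroblast genes up, with 14 of 17 higher at P7d than at P1d, 1 lower (*Vim*, named because it stood alone), against 15.5% and 28.6% of all genes, and a median log2 change of 0.73 against -0.09 for all genes. Without the 4 hearts with *Xist* none of the 17 passed by limma, with 12 at an unadjusted p under 0.05 and a median of 0.75. *Pi16* (1.63), *Meox1* (1.23), *Medag* (1.17), *Fap* (1.10) and *Dpt* (0.94) led them. In the epicardial and mesothelial list 9 of 12 were lower and none higher by limma (10 at an unadjusted p under 0.05 in either direction), with a median of -0.73. Without the hearts with *Xist* none passed by limma, with 10 at an unadjusted p under 0.05. *Cldn15* (-1.47), *Dmkn* (-1.31), the annexin gene *Anxa8* (-1.19), *Gpm6a* (-1.01) and *Lrrn4* (-0.77) changed most. *Rxrg* (2.27), *Aldh1a3* (0.65) and *Rarg* (0.50) were the 3 higher genes of the retinoic acid list, in which 3 were lower, and without the hearts with *Xist* 1 was higher and none lower. *Prrx1* (0.57) and *Snai2* (0.46) were higher and *Tgfbr3* (-0.66) lower, and none of the transition genes passed by limma without the hearts with *Xist*, with 2 at an unadjusted p under 0.05.

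Levels per length put *Pdgfra* on top at E18.5d and P1d and *Aldh1a2* at P7d. At E18.5d the order was *Pdgfra*, *Tcf21*, *Krt19*, *Msln*, *Upk3b*, *Aldh1a2*, *Tbx18*, *Wt1*, *Upk1b* and *Bnc1*, in which *Pdgfra* and *Tcf21*, *Tcf21* and *Krt19*, *Msln* and *Upk3b*, and *Tbx18* and *Wt1* overlapped between hearts. At P1d most neighbours in the order overlapped, *Msln* stood next to *Pdgfra*, and *Aldh1a2* was again the sixth. At P7d the order was *Aldh1a2*, *Pdgfra*, *Tcf21*, *Msln*, *Krt19*, *Wt1*, *Upk3b*, *Tbx18*, *Upk1b* and *Bnc1*, and the 4 genes from *Msln* to *Upk3b* overlapped from each to the next.

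A ratio of FPKM of both genes within a heart is free of the scale of its column. Relative to *Upk3b*, *Aldh1a2* was at 0.905, 0.731 and 0.752 in the E18.5d hearts, at 0.677, 0.577 and 1.19 in the P1d hearts and at 4.89, 4.63 and 4.44 in the P7d hearts. *Wt1* went from 0.518 ± 0.0416 to 1.02 ± 0.0831 times the *Upk3b* level between E18.5d and P7d, *Tcf21* from 1.66 ± 0.267 to 3.74 ± 0.202 and *Pdgfra* from 1.76 ± 0.267 to 4.28 ± 0.383 (SD, n = 3). In all 4 ratios every P7d heart lay above every earlier heart. *Upk3b* itself fell at P7d, so that a gene with a steady level rises against it. The FPKM means of *Wt1*, *Tcf21* and *Pdgfra* were no higher at P7d than at E18.5d, and only that of *Aldh1a2* was. The uroplakins stood in a like proportion at the outer stages, with a ratio of *Upk1b* to *Upk3b* of 0.422 ± 0.00619 at E18.5d and 0.429 ± 0.0290 at P7d, yet it was 0.634 ± 0.0460 at P1d. *Tcf21* to *Pdgfra*, both fibroblast genes, had a ratio of 0.944 ± 0.0258 at E18.5d and 0.877 ± 0.0587 at P7d, with a lower 0.621 ± 0.0744 between them at P1d. These 9 ratios were chosen after the values were seen and are given with no test.

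**Figure D4:**
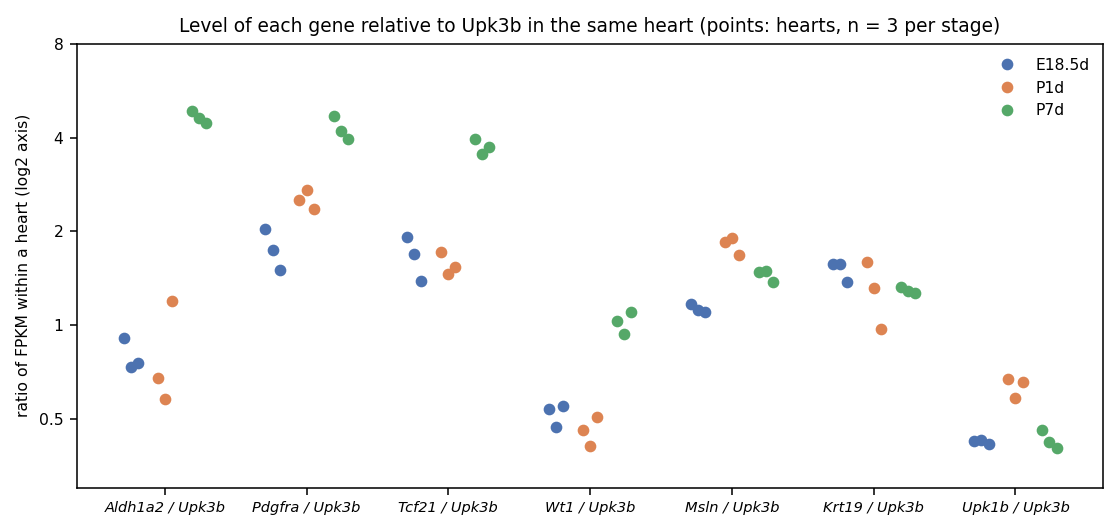
Ratio of FPKM to that of *Upk3b* in the same heart (log2 axis) for 7 genes, with 3 hearts per stage as points. Relative to *Upk3b*, which itself fell, *Aldh1a2*, *Pdgfra*, *Tcf21* and *Wt1* stand higher at P7d, the first at 4.44 to 4.89. *Upk1b* is near 0.42 at E18.5d and P7d.

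The 9 tested genes were also compared by the root mean square difference of their log2 values over the 9 hearts, each centred on its own mean, where 0 means the same course. *Upk1b* and *Msln* were nearest to each other (0.115), followed by *Wt1* and *Tcf21* (0.163) and *Upk3b* and *Krt19* (0.203), and *Aldh1a2* and *Krt19* were farthest apart (1.24). The measure is not scaled for the size of a change, so genes that change little lie near each other. A flat course would lie at 0.218 from *Wt1* and 0.18 from *Tcf21*, but at 0.566 from *Upk1b* and 0.545 from *Msln*. The nearness of *Wt1* and *Tcf21* therefore says little about a shared course. Over all genes tested, *Wt1* was nearest to *Fam45a* (0.067) and *Polk* (0.0716), *Tcf21* to *Ccdc134* (0.0452), and *Upk3b* to *Cachd1* (0.111) and *Rpl31* (0.128). *Muc16*, of the mesothelial list, was the fifth nearest to *Upk3b* (0.133), and the collagen gene *Col16a1* the fifth nearest to *Tcf21* (0.0648). The points share libraries, so that these distances are a description over 9 hearts.

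The deposited columns differ in scale, and this bears on the small differences. With median of ratios the median change of all genes from E18.5d to P7d moved by 0.155, from -0.17 to -0.02, and 21.3% of genes were higher and 20.9% lower. The group kept 1 higher and 5 lower gene on all 4 other scales in this comparison. Between P1d and E18.5d it had 0 higher and 5 lower with columns of equal sum and 2 higher and 3 lower with median of ratios, and between P7d and P1d 2 higher and 4 lower, and 2 higher and 5 lower. *Tcf21* and *Pdgfra* lay on both sides of 0 at P7d against E18.5d, between -0.16 and 0.06 and between -0.06 and 0.16.

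**Figure D5:**
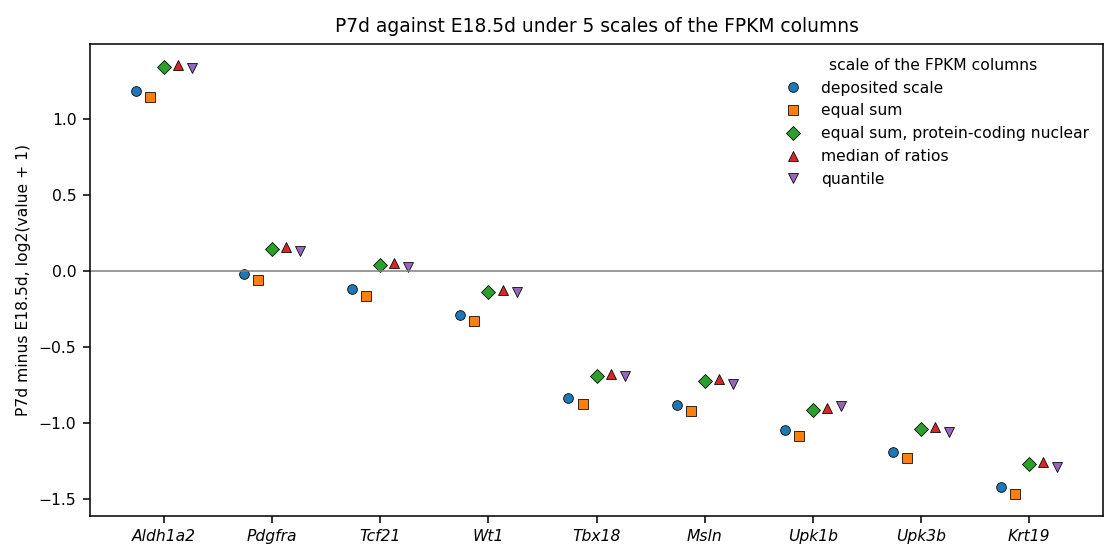
Log2 difference between P7d and E18.5d for the 9 tested genes with 5 scales of the FPKM columns (symbols). *Aldh1a2* stays between 1.14 and 1.35 and *Tbx18*, *Msln*, *Upk1b*, *Upk3b* and *Krt19* stay at or below -0.68 on every scale, whereas *Pdgfra* and *Tcf21* lie between -0.16 and 0.16.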

How the data were processed

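Hearts of 3 stages were grouped as the labels and column names give them, with 1 column for each heart and no other. The authors deposited FPKM values of 48820 genes, of which 21565 were at 0 in every heart. The submitters' processing notes name STAR and GRCm38/mm10, and the counting tool, its strand setting and the annotation are not given in the sources used here. Gene positions are those of GENCODE M21 (GRCm38), which held 48144 of the identifiers, and promoters from RefSeq GRCm38.p6.

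Values were transformed to log2(FPKM + 1), a scale that understates the change of low genes. A limma 3.58.1 model (R 4.3.3, eBayes with trend, all 9 hearts, stage as the only term) covered the 13618 genes that averaged 1 FPKM or more, and adjusted p-values (Benjamini-Hochberg) of at most 0.05 were called. On simulated data 154 of 200 genes changed at P7d were called against E18.5d, with 8 unchanged genes beside them. Against P1d 154 were called, with 15 unchanged genes beside them. At equal numbers of each size, 62 genes changed by 0.6 and 92 changed by 1.5 on the log2 scale were called against E18.5d. The simulation had independent noise and a far smaller share of changed genes than was called in the hearts. The steps of low FPKM values gave the depth, and 90.7% to 93.1% of them were whole within 0.15 of a fragment, and simulated depths were recovered within 1.83%. It was used for floors only, and intervals cover counting error or the spread between hearts.

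The 10 genes and the lists of related genes were chosen with earlier results of these data known. The text names all 10 genes and, of each related list, up to 5 with the largest changes among called genes with no overlap between the hearts compared. For *Wt1*, *Tcf21* and *Upk3b* it names near genes by root mean square difference. Some genes these rules would name are not reported here. The airway genes, the within-heart ratios and the fit without the hearts with airway genes (*Scgb3a2* over 10 FPKM) were added once the data had been seen. Other alternatives were the pseudocount, filter, column scale, trend, samples in the fit, *Xist* as a covariate (above 1 FPKM) or its hearts left out, a replicate block, a minimum of 1 for the size of the log2 change, and each heart left out. Tools were Python 3.11.15 with pandas 2.3.3, numpy 2.4.6, scipy 1.17.1 and matplotlib 3.10.9.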

Additional observations from a re-analysis of the deposited data

How the results depend on the processing

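Of the single-gene results under the alternatives, 550 kept their direction and side of the threshold, 51 lost and 18 gained a call, and 8 changed sign. For *Bnc1*, outside the main test, only the log2 difference was compared. In part the direction was fixed in advance. Changes of the filter, the trend or the replicate block leave a log2 difference as it was, as does leaving out a heart of the stage not compared. For P7d against E18.5d, 6 genes were called, and 0 without the 4 hearts with *Xist*, a fit with 1 heart at E18.5d and at P7d that assumes the lone hearts vary like the others. For P7d against P1d the count of 6 became 1 without these hearts and 3 where the log2 change had to reach 1 in size. For P1d against E18.5d the count of 5 became 0 where it had to reach 1 and 0 without the hearts with *Xist*, 1 with *Xist* as a covariate, 1 without the 3 hearts with airway genes, and 3 with no filter, with a mean of at least 0.1 FPKM and with only the stages compared. Leaving out each heart in turn gave 3 to 8, the highest without P1d replicate 3 and the lowest without P1d replicate 1 or any heart of E18.5d or P7d. The cause was not tested. *Tcf21* changed sign at P7d against E18.5d with median of ratios (0.0554), quantile normalization (0.0261) and equal sums of protein-coding nuclear genes (0.0424). *Pdgfra* did so with the same scales (0.16, 0.13 and 0.15), without the hearts with airway genes (0.0481) and without E18.5d replicate 1 (0.0099, where leaving out each heart gave -0.0471 to 0.0099), in each case without passing. Replicate numbers are shared between stages. Same-numbered hearts correlated at -0.0546 to 0.112 in their deviations, and hearts with different numbers at -0.182 to 0.129. Whether same-numbered hearts shared a litter or a batch was not tested. With the replicate block 7 genes were called at P7d against E18.5d, with *Wt1* added (-0.29, limma adjusted p = 0.0383), 5 at P1d against E18.5d and 6 at P7d against P1d. Depth limits *Bnc1* most, with 20.6 fragments per kilobase in its lowest heart.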
